A study of Arabidopsis thaliana with 8 samples.

Results

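The 10 genes described here encode the early enzymes of tetrapyrrole synthesis, from glutamyl-tRNA reductase to coproporphyrinogen oxidase: HEMA1, HEMA2, GSA1, GSA2, HEMB1, HEMC, HEMD, HEME1, HEME2 and HEMF1. They were taken by locus identifier from the 36917 loci measured. This rule used no measured value, though earlier results of these data were known when the genes were chosen. RNA was sequenced from whole seedlings of Arabidopsis thaliana, 5 days old, which had grown at 22 °C in constant white light (100 µmol photons m-2 s-1) on agar with Murashige and Skoog salts (MS) and 1% sucrose. The 4 groups were irx3-2 on MS with lincomycin at 50 µg/ml, irx3-2 on MS, wild type Col-0 on MS with lincomycin at the same dose, and Col-0 on MS, with 2 libraries each. The irx3-2 mutant has a germline allele of IRX3, the gene of CESA7, which belongs to the cellulose synthase complex of secondary walls. Lincomycin blocks translation on plastid ribosomes. Whether both libraries of a group stem from separate sowings is not given, so the p-values below reflect only the spread between libraries, which may be technical.

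Tetrapyrroles include chlorophyll, heme, siroheme and the bilin pigment of phytochrome, and plants make all of them in plastids from glutamate bound to its transfer RNA. Glutamyl-tRNA reductase (HEMA) catalyses the rate-limiting step, and the aminomutase GSA completes 5-aminolevulinic acid. HEMB, HEMC, HEMD, HEME and HEMF then turn this precursor into the porphyrin ring that the magnesium (chlorophyll) and iron (heme) branches share. All of these enzymes are encoded in the nucleus and imported into plastids, and HEMA1 transcript is a classical readout of signals from damaged plastids to the nucleus.

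The sequence upstream of 4 of the genes is shown, 2 that fell strongly on lincomycin (HEMA1 and HEMF1), HEMA2, which did not pass the test, and GSA2. GSA2 passed a test for a different response in the mutant, but that call was lost when most single libraries were left out. Each run gives the bases before the annotated start, 5′ to 3′ on the gene's strand, from the RefSeq assembly TAIR10.1. It stops at 250 bases or at the neighbouring gene. Capitals mark the matches to 4 motifs named for light-regulated promoters, searched on both strands: the G-box CACGTG, the I-box GATAAG, the CCAAT-box element CCAATC, and the FHY3 and FAR1 site CACGCGC.
HEMA1 (chr1:21626403-21626652, minus strand): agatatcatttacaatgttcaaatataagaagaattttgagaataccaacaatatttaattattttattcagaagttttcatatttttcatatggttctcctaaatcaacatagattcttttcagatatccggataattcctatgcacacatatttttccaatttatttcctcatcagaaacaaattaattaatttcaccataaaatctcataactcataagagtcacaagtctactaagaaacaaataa
HEMA2 (chr1:3239555-3239804, minus strand): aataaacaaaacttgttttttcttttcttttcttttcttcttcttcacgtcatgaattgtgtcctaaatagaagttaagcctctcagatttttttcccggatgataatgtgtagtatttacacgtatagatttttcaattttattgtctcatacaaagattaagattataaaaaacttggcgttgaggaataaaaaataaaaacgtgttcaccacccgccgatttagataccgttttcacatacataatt
GSA2 (chr3:18049475-18049570, plus strand): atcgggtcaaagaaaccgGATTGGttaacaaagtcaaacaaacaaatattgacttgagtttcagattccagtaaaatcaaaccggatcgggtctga
HEMF1 (chr1:871309-871558, minus strand): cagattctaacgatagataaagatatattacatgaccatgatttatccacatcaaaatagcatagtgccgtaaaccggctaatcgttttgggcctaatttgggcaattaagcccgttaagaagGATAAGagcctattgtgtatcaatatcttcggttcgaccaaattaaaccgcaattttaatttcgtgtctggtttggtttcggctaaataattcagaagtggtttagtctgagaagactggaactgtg
The search covered 9 of the genes and left out HEMD. HEMF1 held the I-box 127 to 122 bases before its start, and GSA2 held CCAATC as its reverse complement 78 to 73 bases before. In the 250 bases before 27443 protein-coding genes, 6.49% held the G-box, 12.3% the I-box, 10.2% CCAATC and 1.06% CACGCGC, beside 0, 1, 1 and 0 of the 9 genes.

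Values are normalized counts, which are reads divided by the size factor of the library. The libraries held 15032240 to 19488440 counted reads, and each of the 10 genes had between 162 and 3483 reads in every library, so all 10 passed the filter on low values. Plastid transcripts took 18.8 to 20.7% of the reads in irx3-2 on lincomycin, 55.2 to 58.1% in irx3-2 on MS, 19.6 to 20.4% in Col-0 on lincomycin and 54.1 to 55.0% in Col-0 on MS. This left 12364222 to 13793986 nuclear reads on lincomycin and 6656099 to 8164824 on MS. Transcript of the mutated gene, CESA7, was present in both genotypes: it had 294 and 401 normalized counts in irx3-2 on lincomycin, 712 and 711 in irx3-2 on MS, 222 and 209.6 in Col-0 on lincomycin, and 265 and 278 in Col-0 on MS. Both comparisons put it higher in irx3-2 (adjusted p = 0.00760 on MS and 0.0347 on lincomycin, limma), so its level does not check the mutant label as a loss of transcript would.

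Lincomycin lowered most of the early pathway in both genotypes. The test was limma on log2(normalized count + 1) over 20251 genes, with Benjamini-Hochberg adjustment over all of them and a threshold of 0.05. In irx3-2, 8 of the 10 genes fell and 0 rose, where 33.8% of all genes tested were called and 18% were called lower. In Col-0 it was also 8 of 10 lower and 0 higher, against 29.2% of all genes called and 17.2% called lower. Both lincomycin libraries lay below both MS libraries for 8 of the 10 genes in irx3-2, where 32.7% of all genes tested did so, and for 10 of 10 in Col-0, where 33.4% did. The median log2 change of the 10 genes was −0.82 in irx3-2, where that of all genes tested was 0.04. In Col-0 the corresponding medians were −1.19 and 0.02. Scaling by the total of nuclear reads instead moved the median of all genes up by 0.40 in irx3-2 and 0.50 in Col-0, and 7 of the 10 genes still fell in irx3-2 and 8 in Col-0. The falls differed in size between the genes. HEMA1, HEMC, HEME1 and HEMF1 fell 3.11-fold to 4.18-fold, GSA1, GSA2, HEMB1 and HEME2 fell 1.32-fold to 2.33-fold, and HEMA2 and HEMD did not pass. In whole seedlings, fewer cells of a type and less transcript per cell cannot be told apart.

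**Figure D1:**
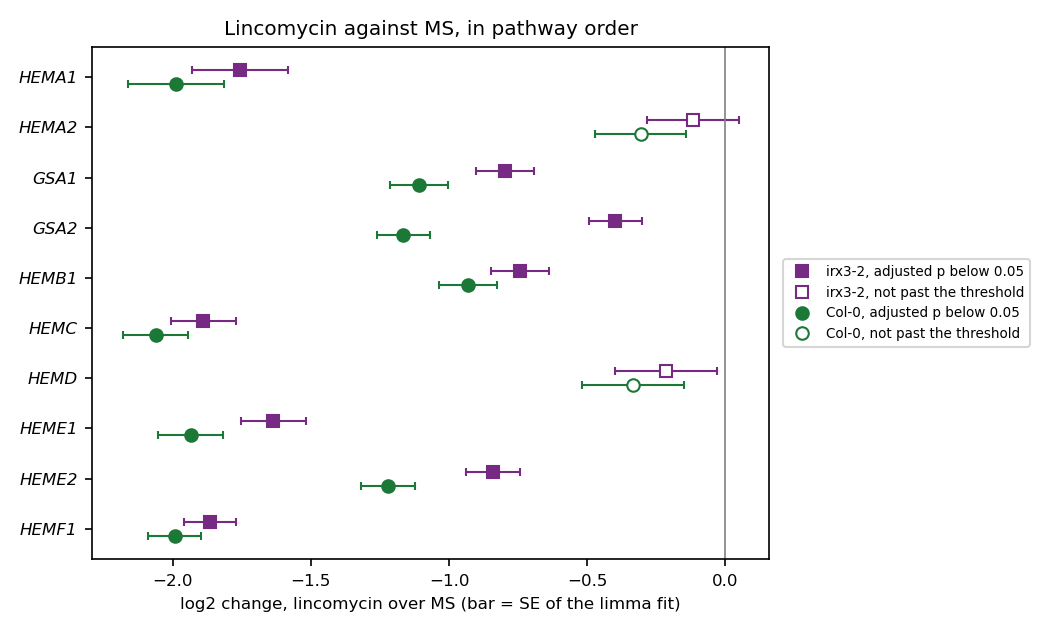
Log2 change on lincomycin over MS (horizontal axis) for the 10 genes in pathway order from top to bottom, with squares for irx3-2, circles for Col-0, and bars for the standard error of the limma fit. Filled symbols passed an adjusted p of 0.05. HEMA1, HEMC, HEME1 and HEMF1 lie between −2.06 and −1.64, and the open symbols of HEMA2 and HEMD lie between −0.33 and −0.12.

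The first enzyme, glutamyl-tRNA reductase, has a light-regulated gene that serves chlorophyll synthesis (HEMA1, AT1G58290, chromosome 1, 21623700 to 21626402, minus strand) and one that is expressed in both green and non-green tissue (HEMA2, AT1G09940, chromosome 1, 3236908 to 3239554, minus strand). Per-library values are given in the order of the replicate numbers. HEMA1 had 1142 and 1034 normalized counts in irx3-2 on lincomycin and 2999 and 4508 on MS, and in Col-0 it had 1043 and 1042 on lincomycin and 3672 and 4674.5 on MS. All 4 lincomycin libraries lay below all 4 MS libraries and close to each other, while the 2 irx3-2 libraries on MS were the furthest apart. HEMA1 was thus 3.38-fold lower in irx3-2 (log2 −1.76 ± 0.17 SE, adjusted p = 2.35e-05, limma) and 3.97-fold lower in Col-0 (−1.99 ± 0.17, adjusted p = 1.01e-05). HEMA2 had 267 and 233 normalized counts in irx3-2 on lincomycin and 255 and 287 on MS, and 281 and 259 in Col-0 on lincomycin and 294 and 379.7 on MS. The irx3-2 groups overlapped, and the Col-0 groups were separated by a narrow gap. Its log2 change was −0.12 ± 0.17 in irx3-2 (adjusted p = 0.621, limma) and −0.31 ± 0.17 in Col-0 (adjusted p = 0.196).

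**Figure D2:**
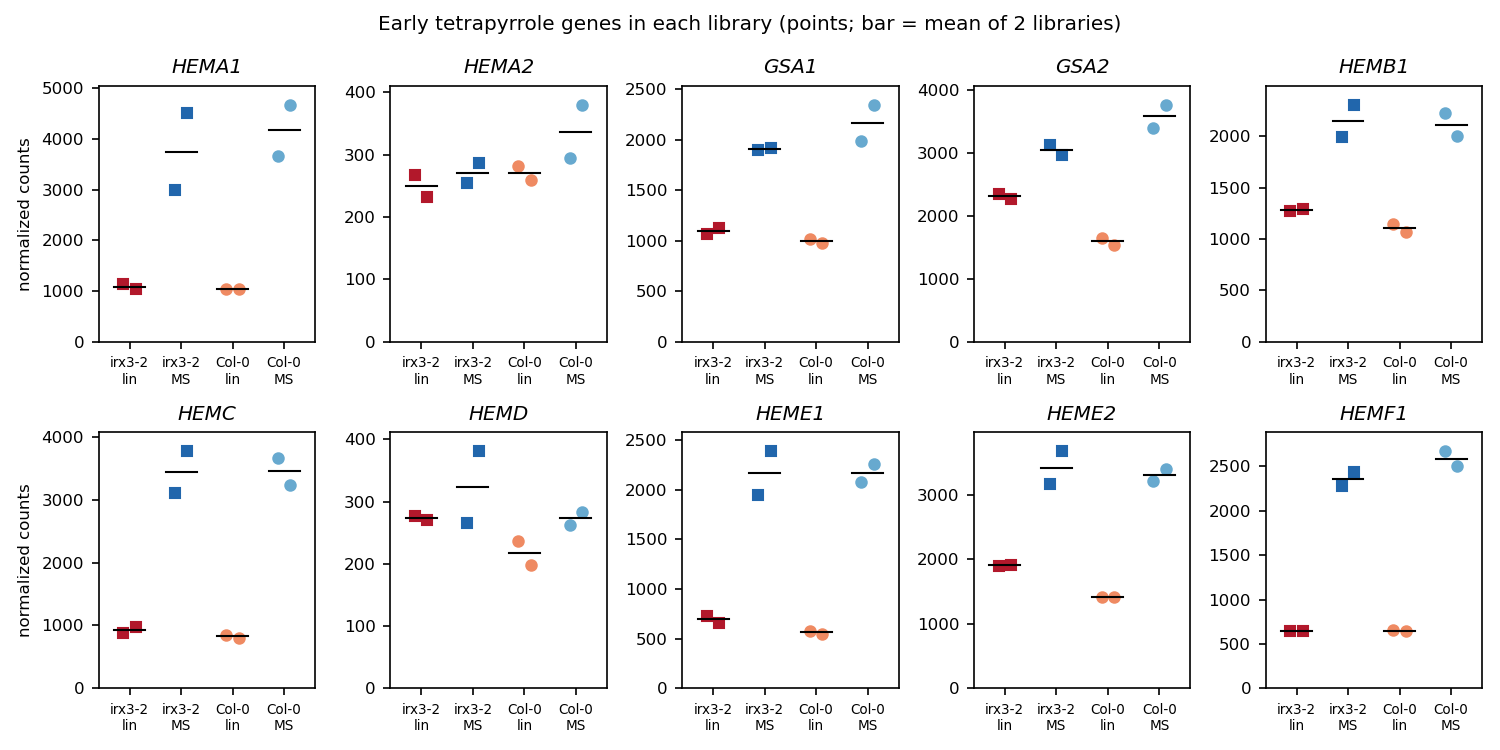
Normalized counts (vertical axes, each from 0) of the 10 genes in each library, with groups from left to right irx3-2 on lincomycin, irx3-2 on MS, Col-0 on lincomycin and Col-0 on MS; points are libraries and bars are means of 2. The lincomycin points lie below the MS points of the same genotype for 8 genes in irx3-2 and for 10 in Col-0.

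GSA1 and GSA2 encode the aminomutase that finishes 5-aminolevulinic acid (GSA1, AT5G63570, chromosome 5, 25451800 to 25453845, plus strand; GSA2, AT3G48730, chromosome 3, 18049571 to 18051778, plus strand). GSA1 had 1065 and 1128 normalized counts in irx3-2 on lincomycin and 1897 and 1913 on MS, and 1017 and 982 in Col-0 on lincomycin and 1986 and 2344 on MS. The lincomycin libraries of both genotypes lay close together and below every MS library. GSA1 fell 1.74-fold in irx3-2 (log2 −0.80 ± 0.10, adjusted p = 1.86e-04, limma) and 2.16-fold in Col-0 (−1.11 ± 0.10, adjusted p = 1.81e-05). GSA2 had 2351 and 2276 normalized counts in irx3-2 on lincomycin and 3131 and 2968 on MS, and 1652 and 1539 in Col-0 on lincomycin and 3399.6 and 3767 on MS. Its groups did not overlap, and the irx3-2 lincomycin libraries stood between the Col-0 lincomycin libraries and all MS libraries. The fall was 1.32-fold in irx3-2 (−0.40 ± 0.10, adjusted p = 0.00837, limma) and 2.24-fold in Col-0 (−1.17 ± 0.10, adjusted p = 5.77e-06). The irx3-2 call was lost when replicate 3 of irx3-2 on lincomycin was left out (−0.37, adjusted p = 0.0650). It was also lost when values were scaled by the total of nuclear reads instead, where the irx3-2 change was 0.0022 (adjusted p = 0.988).

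HEMB1 (AT1G69740, chromosome 1, 26231620 to 26235043, plus strand) encodes 5-aminolevulinic acid dehydratase, which joins precursor molecules into porphobilinogen. HEMB1 had 1273 and 1289 normalized counts in irx3-2 on lincomycin and 1997 and 2306 on MS, and 1146 and 1067 in Col-0 on lincomycin and 2226 and 1999 on MS. Every lincomycin library was below every MS library, with the smallest Col-0 fall of the 8 genes that passed. HEMB1 fell 1.67-fold in irx3-2 (log2 −0.74 ± 0.11, adjusted p = 3.43e-04, limma) and 1.91-fold in Col-0 (−0.93 ± 0.11, adjusted p = 7.61e-05).

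HEMC (AT5G08280, chromosome 5, 2663499 to 2665826, minus strand) encodes porphobilinogen deaminase, which builds the linear tetrapyrrole, and HEMD (AT2G26540, chromosome 2, 11287308 to 11290361, minus strand) encodes uroporphyrinogen III synthase, which closes the ring. HEMC had 878 and 971 normalized counts in irx3-2 on lincomycin and 3109 and 3769.7 on MS, and 843 and 807 in Col-0 on lincomycin and 3671 and 3243 on MS. Its log2 change was the largest of the 10 genes in both genotypes, with no lincomycin library near an MS library. HEMC fell 3.71-fold in irx3-2 (log2 −1.89 ± 0.12, adjusted p = 6.42e-07, limma) and 4.18-fold in Col-0 (−2.06 ± 0.12, adjusted p = 3.38e-07). HEMD had 277 and 271 normalized counts in irx3-2 on lincomycin and 266 and 381 on MS, and 237 and 197 in Col-0 on lincomycin and 262 and 284 on MS. In irx3-2 the lincomycin libraries lay between the MS libraries, and in Col-0 both were slightly below. Its log2 change was −0.21 ± 0.18 in irx3-2 (adjusted p = 0.403, limma) and −0.33 ± 0.18 in Col-0 (adjusted p = 0.206). HEMC shares 10.7% of its exon bases with AT5G08270 and AT5G01545, which lie on the opposite strand. The strand setting of the counting is not given in the sources used here, so their reads could not be told apart there. AT5G08270 had 31.8 to 65.9 normalized counts over the 8 libraries, far below HEMC, and 0 of these 2 genes passed in either genotype.

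HEME1 and HEME2 encode uroporphyrinogen decarboxylase (HEME1, AT3G14930, chromosome 3, 5020461 to 5023146, plus strand; HEME2, AT2G40490, chromosome 2, 16912805 to 16915202, plus strand). HEME1 had 725 and 663 normalized counts in irx3-2 on lincomycin and 1948 and 2386 on MS, and 582 and 548 in Col-0 on lincomycin and 2074 and 2256.5 on MS. The lincomycin libraries were well below the MS libraries in both genotypes, and the irx3-2 ones lay above the Col-0 ones. HEME1 fell 3.11-fold in irx3-2 (log2 −1.64 ± 0.12, adjusted p = 2.09e-06, limma) and 3.83-fold in Col-0 (−1.94 ± 0.12, adjusted p = 6.06e-07). HEME2 had 1899 and 1909 normalized counts in irx3-2 on lincomycin and 3168 and 3671 on MS, and 1416 and 1414 in Col-0 on lincomycin and 3213 and 3393 on MS. As for GSA2, the irx3-2 lincomycin libraries stood between the Col-0 lincomycin libraries and all MS libraries. The MS groups of HEME2 overlapped, while those of GSA2 did not. HEME2 fell 1.79-fold in irx3-2 (−0.84 ± 0.10, adjusted p = 7.95e-05, limma) and 2.33-fold in Col-0 (−1.22 ± 0.10, adjusted p = 5.10e-06).

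HEMF1 (AT1G03475, chromosome 1, 868853 to 871308, minus strand) encodes coproporphyrinogen oxidase, also known from the lesion mutant lin2, and makes protoporphyrinogen. HEMF1 had 648 and 643 normalized counts in irx3-2 on lincomycin and 2280.2 and 2435 on MS, and 653 and 643 in Col-0 on lincomycin and 2667 and 2504 on MS. The 4 lincomycin libraries were almost equal, with no separation of the genotypes there. HEMF1 fell 3.65-fold in irx3-2 (log2 −1.87 ± 0.09, adjusted p = 1.22e-07, limma) and 3.98-fold in Col-0 (−1.99 ± 0.09, adjusted p = 7.50e-08).

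Of 3 other isoforms of the same enzymes, 2 could be tested, and both were higher on lincomycin. HEMF2 (AT4G03205), annotated as a chloroplast coproporphyrinogen oxidase, had 389.6 and 395 normalized counts in irx3-2 on lincomycin and 219 and 166 on MS, and 401 and 400.2 in Col-0 on lincomycin and 204 and 275 on MS. All lincomycin libraries lay above all MS libraries. HEMF2 rose 2.05-fold in irx3-2 (log2 1.04 ± 0.18, adjusted p = 0.00130, limma) and 1.69-fold in Col-0 (0.76 ± 0.18, adjusted p = 0.00963). The call held in 15 of 15 alternatives in irx3-2 and in 11 of 15 in Col-0, where it was lost without replicate 2 on MS (adjusted p = 0.0728) and without either lincomycin library. HEMA3 (AT2G31250), annotated as a glutamyl-tRNA reductase expressed in flowers and pollen tubes, was rare, with 37.6 and 22.9 normalized counts in irx3-2 on lincomycin and 8.26 and 7.08 on MS, and 10.6 and 16.6 in Col-0 on lincomycin and 3.06 and 2.91 on MS. Its groups did not overlap, but on MS it rested on 2 to 6 reads a library. HEMA3 passed in both genotypes (1.81 ± 0.59, adjusted p = 0.0375 in irx3-2 and 1.84 ± 0.59, adjusted p = 0.0394 in Col-0, limma), and it passed in 6 and 4 of 15 alternatives. HEMB2 (AT1G44318) had 0 to 4 reads a library and was not tested.

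The ratio of 2 genes for the same enzyme within a library does not depend on its size factor, and it was lower on lincomycin for the HEMA and HEME pairs. HEMA1 exceeded HEMA2 4.28-fold and 4.45-fold in irx3-2 on lincomycin and 11.8-fold and 15.7-fold on MS, and 3.71-fold and 4.02-fold in Col-0 on lincomycin and 12.5-fold and 12.3-fold on MS. Every lincomycin ratio was below every MS ratio. The mean log2 ratio was 2.04 ± 0.11 on lincomycin and 3.70 ± 0.19 on MS (SD, n = 4 each, both genotypes together), a difference of −1.66 (two-sided exact permutation p = 0.0286, the smallest that 4 against 4 can give, and 0.0429 adjusted over 3 ratios). HEME1 over HEME2 gave a mean log2 ratio of −1.39 ± 0.10 on lincomycin and −0.64 ± 0.05 on MS, a difference of −0.76 with the same exact permutation p and no overlap. GSA1 over GSA2 gave −0.88 ± 0.24 on lincomycin and −0.70 ± 0.06 on MS (exact permutation p = 0.314). These tests exchanged libraries without regard to genotype, and splits kept within each genotype were not tested. The wide spread of the GSA ratio on lincomycin came from the genotypes. It was 0.453 and 0.496 in irx3-2 on lincomycin and between 0.584 and 0.645 in the other 6 libraries. The coding sequences of HEMA1 and HEMA2 are 82.5% identical, those of GSA1 and GSA2 83.5% and those of HEME1 and HEME2 58.7% (RefSeq, TAIR10.1). No exact stretch of 50 bases was shared within a pair. The longest identical run in the aligned coding sequences was 49 bases for the HEMA pair, 38 for the GSA pair and 11 for the HEME pair.

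**Figure D3:**
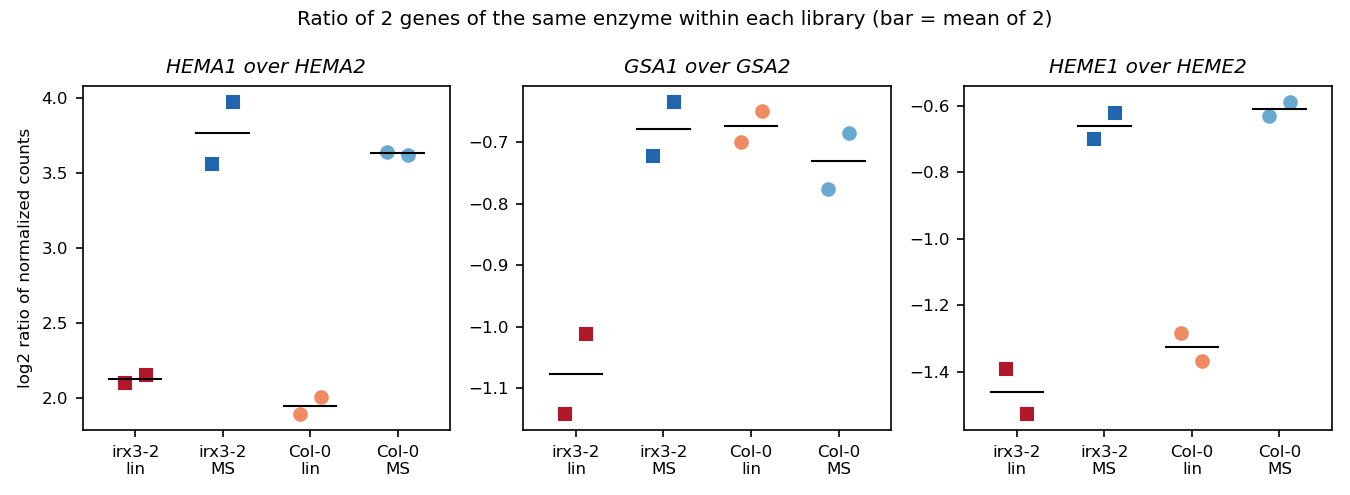
Log2 ratio of the normalized counts of 2 genes for the same enzyme in each library (vertical axes, which do not start at 0), with groups ordered irx3-2 on lincomycin, irx3-2 on MS, Col-0 on lincomycin and Col-0 on MS; bars are means of 2 libraries. HEMA1 over HEMA2 and HEME1 over HEME2 are lower in all 4 lincomycin libraries, and GSA1 over GSA2 is low only in the 2 irx3-2 lincomycin libraries among the 8 libraries.

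Levels were compared between genes after division by exon length, as normalized counts per kilobase. On MS, HEME2 and HEMC led in both genotypes: HEME2 had 2199 ± 228 per kilobase in irx3-2 and 2124 ± 82 in Col-0 (SD, n = 2 each), and HEMC had 2093 ± 284 in irx3-2 and 2104 ± 184 in Col-0. GSA2 (1720.0 in irx3-2, 2021 in Col-0) and HEMA1 (1624 in irx3-2, 1806 in Col-0) followed, and in Col-0 each of these 4 overlapped its neighbour in the order. The bottom of the order was HEMD (189 in irx3-2, 159.6 in Col-0) and HEMA2 (123 in irx3-2, 153 in Col-0), which overlapped in Col-0. On lincomycin GSA2 and HEME2 stood apart at the top, with 1305 and 1225 per kilobase in irx3-2 and 899.9 and 909.8 in Col-0. HEMC (563 in irx3-2, 502 in Col-0) and HEMA1 (471 in irx3-2, 451 in Col-0) had moved into the range of GSA1 and HEMB1 or below it. HEMD and HEMA2 were still the lowest, at 160.3 and 113 in irx3-2 and 127 and 123 in Col-0.

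Between genotypes on MS, no difference in the early pathway passed. Of the 10 genes 0 were called (limma), where 0.217% of all genes tested were called. An unadjusted p below 0.05 (limma) was reached by 1 of the 10 and by 2734 of the 20251 genes tested. The 1 gene was GSA2, with a log2 difference of −0.23 (95% interval −0.44 to −0.02). The tests of edgeR and DESeq2 on the recovered reads also called 0 of the 10. The 2 irx3-2 libraries lay below both Col-0 libraries for HEMA2, GSA1, GSA2 and HEMF1 and overlapped for the other 6, and 18.4% of all genes tested lay below in this way. Log2 differences ran from −0.31 for HEMA2 to 0.22 for HEMD. Their 95% intervals reached from 0.628-fold at the lowest, for HEMA2, to 1.55-fold at the highest, for HEMD. HEMC and HEME1 had the differences closest to 0 (−0.01 each, with log2 intervals of −0.27 to 0.25 for HEMC and −0.27 to 0.26 for HEME1).

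On lincomycin, GSA2 and HEME2 were higher in irx3-2 than in Col-0. GSA2 was 1.45-fold higher (log2 0.54 ± 0.10, adjusted p = 0.0103, limma) and HEME2 1.35-fold higher (0.43 ± 0.10, adjusted p = 0.0311). These 2 of 10 compare with 5.68% of all genes tested that were called and 3.35% that were higher. The irx3-2 libraries lay above both Col-0 libraries for 7 of the 10 genes, HEMA1, HEMA2 and HEMF1 being those that overlapped, and 30.4% of all genes tested lay above in this way. HEME1 (0.29 ± 0.12, adjusted p = 0.204, limma), HEMD (0.34 ± 0.18, adjusted p = 0.371) and HEMB1 (0.21 ± 0.11, adjusted p = 0.329) had the next largest values and did not pass. Neither call held when any of the 4 lincomycin libraries was left out: the adjusted p was then 0.0806 to 0.161 for GSA2 and 0.188 to 0.240 for HEME2, with log2 values of 0.48 to 0.59 and 0.42 to 0.43.

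**Figure D4:**
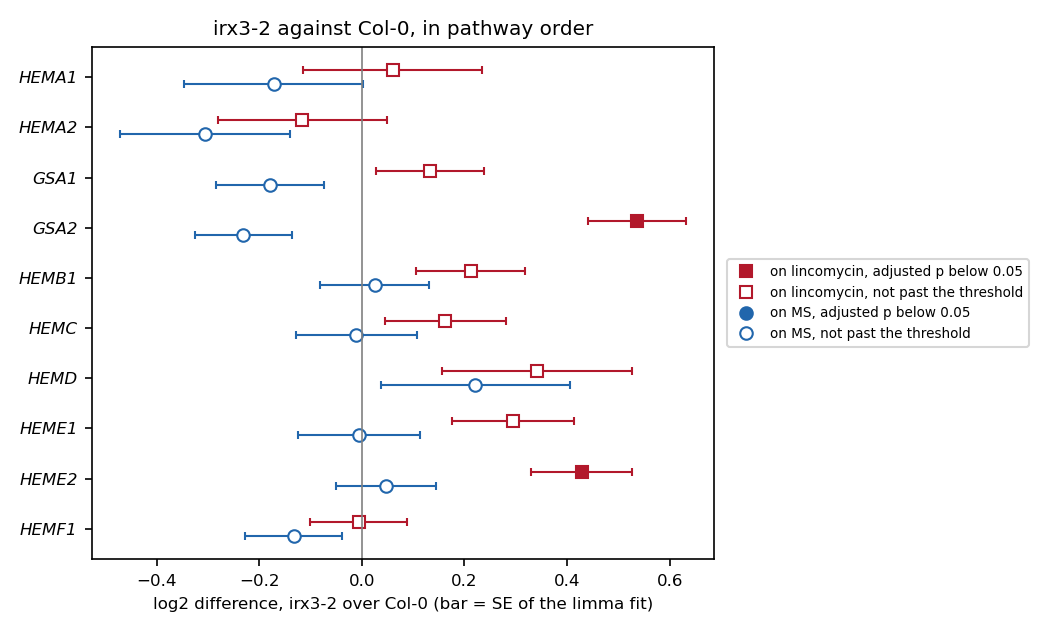
Log2 difference of irx3-2 over Col-0 (horizontal axis) for the 10 genes in pathway order, with squares for seedlings on lincomycin, circles for those on MS, and bars for the standard error of the limma fit. The filled squares of GSA2 (0.54) and HEME2 (0.43) passed an adjusted p of 0.05, and no difference on MS passed.

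The response to lincomycin was tested for a difference between genotypes as an interaction, the log2 change in irx3-2 minus that in Col-0. GSA2 passed: its fall was weaker in irx3-2 by 0.77 ± 0.13 on the log2 scale, a 1.70-fold difference (adjusted p = 0.0339, limma). This is 1 of 10 genes, against 0.657% of all genes tested that were called and 0.356% with a positive interaction called. For GSA2 the interaction combines genotype differences of 0.54 on lincomycin and −0.23 on MS. HEME2 came next (0.38 ± 0.14, adjusted p = 0.275) and did not pass. The interaction was above 0 for all 10 genes, with a median of 0.21, where 53.0% of all genes tested were above 0 with a median of 0.03. The 10 genes share libraries, so this count is a description. Without replicate 1 of irx3-2 on MS, the library with the lower HEMA1 and HEMD values, 8 of 10 were above 0 and the median was 0.09. The median was 0.35 without replicate 2 of irx3-2 on MS and 0.37 without replicate 2 of Col-0 on MS, with all 10 above 0 in both fits. The GSA2 call held when either irx3-2 library on MS was left out. Leaving out any of the other 6 libraries ended it, with log2 values of 0.69 to 0.84 and adjusted p values of 0.0592 to 0.262 (limma). The call was also lost with no filter on low counts (0.77, adjusted p = 0.114) and under scaling by nuclear reads (0.66, adjusted p = 0.0800).

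The rest of the pathway on lincomycin is given by lists of its branches. In the magnesium branch, 13 of 14 genes fell and 0 rose in each genotype (median −1.63 in irx3-2 and −1.91 in Col-0). GUN4 did not pass, but it had only 3 to 10 reads a library. The largest falls were those of protochlorophyllide oxidoreductases, PORA (−4.30 in irx3-2 and −2.82 in Col-0, where the call held in 9 of 15 alternatives) and PORB (−4.16 in irx3-2, −3.87 in Col-0), with CAO (−2.79), the chlorophyllide a oxygenase, in irx3-2 and PORC (−2.89) in Col-0. PORA rested on 0 to 4 reads a library on lincomycin and 4 to 26 on MS, so the size of its fall is uncertain (SE 0.92). PPOX1, the plastid enzyme directly after HEMF, fell (−1.05 in irx3-2, −1.31 in Col-0), and its isoform PPOX2 had 0.15 and 0.11 and did not pass. Of 6 heme and siroheme genes tested, 3 fell and 1 rose in irx3-2, and 4 fell and 1 rose in Col-0. The ferrochelatase FC2 (−1.29 in irx3-2, −1.56 in Col-0) and the siroheme enzyme UPM1 (−0.64 in irx3-2, −1.07 in Col-0) fell in both. The risers were HY2, which makes the phytochrome pigment, in irx3-2 (0.92) and the other ferrochelatase FC1 in Col-0 (0.49, lost in 4 of 15 alternatives).

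Genes that supply glutamyl-tRNA or control its reductase fell in 2 of 6 cases in irx3-2 (median −0.28) and in 6 of 6 in Col-0 (median −0.62). CPSRP43, a chaperone of the reductase (−1.19 in irx3-2, −1.47 in Col-0), and CLPF, an adaptor for its breakdown (−0.64 in irx3-2, −0.67 in Col-0), fell in both genotypes. The MS libraries of CPSRP43 lay far apart, at 2012 and 848 normalized counts in irx3-2 and 1589 and 2659.5 in Col-0. Its log2 change ran from −1.81 to −0.56 in irx3-2 and from −1.90 to −0.97 in Col-0 over the 15 alternatives. That of CLPF ran from −0.72 to −0.24 in irx3-2 and from −0.76 to −0.16 in Col-0. GLURS passed only narrowly in Col-0 (−0.35, adjusted p = 0.0472, limma). Under scaling by nuclear reads only CPSRP43 of the 6 still fell in Col-0, and GLURS and GLUTRBP turned to values above 0. The difference in response between genotypes was not called for any of the 6 genes by the interaction test. Of 8 transcription regulators of the pathway, GLK1 (−1.78 in irx3-2, −1.55 in Col-0) and GLK2 (−1.07 in irx3-2, −0.83 in Col-0), which activate chlorophyll genes, fell in both. The light-signalling factor HY5 rose in irx3-2 (0.55, adjusted p = 0.0444, limma, passing in 5 of 15 alternatives) and had 0.41 in Col-0 without passing. On lincomycin 3 magnesium-branch genes were higher in irx3-2 than in Col-0, beside GSA2 and HEME2: DVR (0.74), a divinyl reductase, CHLI1 (0.51), a subunit of magnesium chelatase, and CHLP (0.43), which makes the phytyl tail. All 3 calls were lost when any of the 4 lincomycin libraries was left out. In the other lists 0 genes passed there, and 0 passed in any of these lists on MS.

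**Figure D5:**
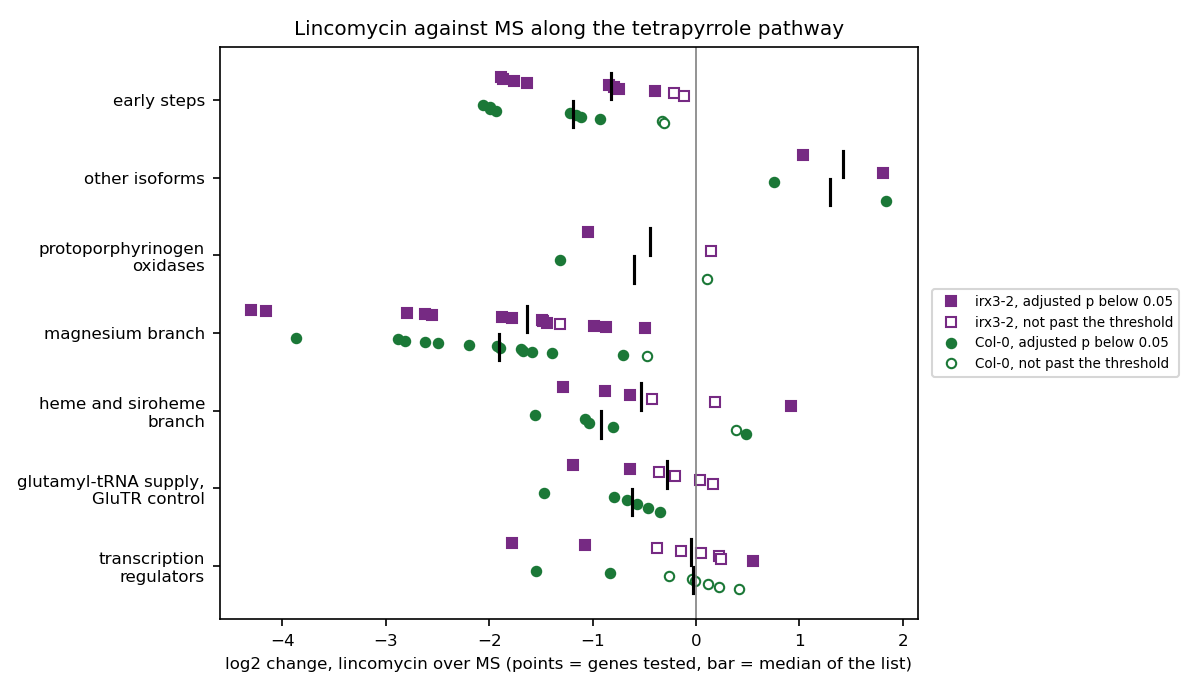
Log2 change on lincomycin over MS (horizontal axis) of every gene tested in each list of the tetrapyrrole pathway, with squares for irx3-2 above circles for Col-0, filled where the adjusted p passed 0.05, and a bar at the median of the list. The early steps have medians of −0.82 and −1.19, the magnesium branch −1.63 and −1.91, and HEMA3 and HEMF2 lie above 0.

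Markers of other cell types and of green tissue moved with the treatment and the genotype. All 8 green tissue markers fell on lincomycin, with sums of 42045 to 45642 normalized counts in irx3-2 and 46137 to 48026 in Col-0 on lincomycin, against 720252 to 913141 in irx3-2 and 653955 to 730820 in Col-0 on MS. The 12 root markers summed to 907 to 1054 normalized counts in irx3-2 on lincomycin and 1287 to 1409 in irx3-2 on MS. Their sums in Col-0 were 1199.8 to 1274 on lincomycin and 1437 to 1898 on MS, with SMB at 0 on MS. PHO1 had the highest mean of the root markers in every group, at 450 in irx3-2 and 702 in Col-0 on lincomycin. On MS its means were 531 in irx3-2 and 629 in Col-0. Of 9 root markers tested, 2 were called lower in irx3-2 (median log2 change −0.40) and 5 in Col-0 (−1.14), with 0 higher in either. Seed markers summed to 1020.0 to 1137 in irx3-2 on lincomycin and 862 to 1257 on MS, against 85.4 to 137 in Col-0 on lincomycin and 160.04 to 192 on MS, so the genotypes did not overlap on either medium. The 4 epidermis markers summed to 9672 to 9791 normalized counts in irx3-2 on lincomycin and 8334 to 8481 on MS. In Col-0 they summed to 11174 to 11255 on lincomycin and 7869 to 8184 on MS. These sums were above MS without overlap in both genotypes, but KCS10 held most of each. SDD1 went the other way, with means of 207 in irx3-2 and 269 in Col-0 on lincomycin against 324 and 363 on MS. Of the 4 markers, 1 was called higher and 1 lower in irx3-2, and 2 higher and 0 lower in Col-0. The part of these differences in the changes of the early pathway was not tested.

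Outside the 10 genes, the profiles closest to HEMA1 over the 8 libraries, by Euclidean distance between centred log2 values, were AT1G02810 (distance 0.39), annotated in the pectin methylesterase inhibitor superfamily, CLD1 (AT5G38520, 0.41), a chlorophyll dephytylase, and AT1G16080 (0.41), an unknown chloroplast protein. AT1G02810 was about as responsive but rare, at 13.9 normalized counts in irx3-2 on lincomycin and 57.8 on MS, and 13.8 in Col-0 on lincomycin and 62.6 on MS. The profiles closest to HEMA2 were AT3G58130 (0.17), annotated as a de-N-acetylase family protein, AT1G08400 (0.20), of the RINT-1 family, and AT3G06150 (0.20), an unknown protein. Of the 20 genes that flank the 10, 14 were tested, and on lincomycin 6 fell and 1 rose in irx3-2 while 5 fell and 3 rose in Col-0, with median log2 changes of −0.34 and −0.17. The heme oxygenase HO2 lies 786 bases upstream of HEMD and fell in Col-0 (−1.04, adjusted p = 0.00208, limma), while its change in irx3-2 (−0.43) did not pass.

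The authors' deposited tables of DESeq2 called 8 of the 10 genes for lincomycin in each genotype, where 27.7% of genes with an adjusted p were called in irx3-2 and 23.5% in Col-0. The authors' deposited tables called 0 of 10 between genotypes on MS, against 0.801%, and 2 of 10 on lincomycin, GSA2 and HEME2, against 8.62%. The authors' deposited table gives GSA2 on lincomycin as −0.53 (adjusted p = 7.17e-05), where the sign runs Col-0 over irx3-2.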

How the data were processed

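RNA-seq of 8 libraries was analysed, with groups and replicate numbers taken from the labels. The submitters' processing notes name the TAIR10 genome and the programs FastQC, Trimmomatic, featureCounts, DESeq2 and TopHat2 2.1.1. Strand setting, handling of reads with several matches and annotation version are not given in the sources used here. The authors deposited 4 tables of 36917 loci, each with the same 8 columns of normalized counts (a signal, reads over a size factor), and, per the file headers, log2 fold changes with standard errors, the Wald statistic as a score, and p-values. All values (100%) were whole multiples of 1 step per column within 0.01, so whole reads were recovered. Of the loci, 4890 were at 0 everywhere.

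The main test was limma 3.58.1 (R 4.3.3) with a mean-variance trend on log2(normalized count + 1), for the 20251 genes that reached 10 normalized counts in 2 or more libraries. The fit took all 8 libraries and 4 group means, leaving 4 residual degrees of freedom, and used the Benjamini-Hochberg adjustment across every gene tested. Intervals of 95% used the moderated degrees of freedom. Alternatives were a pseudocount of 4, no filter, edgeR 4.0.16 with TMM and DESeq2 1.42.0 on recovered reads, scaling by nuclear reads, a fit of only the 2 groups compared, a replicate block and each library left out, where the lone library was assumed to vary like the other groups. The edgeR test called 6936, 6266, 59, 1465 and 190 genes for lincomycin in irx3-2, lincomycin in Col-0, genotype on MS, genotype on lincomycin and the interaction. Ratios of gene pairs were compared by an exact permutation test over 70 splits, made without regard to genotype. The fit was tested on simulated data. Gene models, identities and upstream bases came from RefSeq TAIR10.1; the upstream bases of 1 gene are not reported here. Named were all 10 genes, HEMA3, HEMB2 and HEMF2, at most 3 genes per list, comparison and direction with the largest change past the threshold, genes that overlap or flank the 10, and the 3 nearest profiles of HEMA1 and HEMA2. PPOX2 and GUN4 were named after their values were seen. The genes and lists were chosen with earlier results of these data known.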

Additional observations from a re-analysis of the deposited data

Results flagged for a closer look

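The response of GSA2 to lincomycin differed between the genotypes by the interaction test: the log2 change in irx3-2 was higher than that in Col-0 by 0.77 (adjusted p = 0.0339, limma). The call was lost with no filter (adjusted p = 0.114), under scaling by nuclear reads (0.66, adjusted p = 0.0800), with a replicate block (0.86, adjusted p = 0.182) and when any of 6 of the 8 libraries was left out. GSA2 had 2351 and 2276 normalized counts in irx3-2 on lincomycin and 3131 and 2968 on MS, and 1652 and 1539 in Col-0 on lincomycin and 3399.6 and 3767 on MS. The GSA1 over GSA2 ratio, which a library's size factor does not touch, was 0.453 and 0.496 in irx3-2 on lincomycin and 0.606 and 0.645 on MS, and 0.616 and 0.638 in Col-0 on lincomycin and 0.584 and 0.622 on MS.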

How the results depend on the processing

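Over all settings, 689 of 740 results of the 10 genes kept their direction and side of the threshold, 22 lost their call in the same direction, and 1 called result changed sign. The other 28 passed in neither fit and changed sign. Scaling by nuclear reads moved the median of all genes by 0.40 (log2) for lincomycin in irx3-2, 0.50 in Col-0 and −0.10 for the interaction, and gave 7765 higher and 2202 lower calls in irx3-2 (3197 and 3638 otherwise) and 8915 higher and 1975 lower in Col-0 (2431 and 3490 otherwise). Under it 7 of the 10 genes still fell in irx3-2 and 8 in Col-0. Signs turned for GSA2 in irx3-2 (0.0022, adjusted p = 0.988, limma) and, in Col-0, for GLURS (0.15, adjusted p = 0.370) and GLUTRBP (0.039, adjusted p = 0.827). FAR1, which was not called in Col-0 in the main fit, turned to 0.46 there and passed (adjusted p = 0.0192, limma). The uncalled HEMA2 and HEMD turned to 0.28 and 0.19 in irx3-2 and 0.20 and 0.17 in Col-0. With the replicate block the GSA2 call in irx3-2 was lost (−0.36, adjusted p = 0.0547). The 2 genes called between genotypes on lincomycin became 1 with no filter, 1 under nuclear scaling and 1 with a replicate block, and 0 to 2 with a library left out. The 1 interaction call became 0 in those 3 settings and 0 to 1 with a library left out. The GSA ratio difference was −0.40 in irx3-2 alone and 0.056 in Col-0 alone, given as values without a test. Counts over all genes moved most for the interaction (133, against 29 with no filter, 376 with DESeq2 and 24 with the block), for genotype on MS (44, against 4, 136 and 18, and 0 with only the 2 groups) and for genotype on lincomycin (1150, against 580 with no filter, 337 with the block and 3311 with only the 2 groups). With a library left out, they ran 11 to 357, 15 to 901 and 116 to 1967. Same-numbered libraries showed little shared deviation from their group means (correlations −0.14 to 0.13 over 7 pairs). The 2 deviations of a group mirror each other, so these values cannot decide whether equal numbers mark libraries handled together. With 2 libraries a group, the 95% intervals of the genotype differences on MS reached down to 0.628-fold and up to 1.55-fold.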
